A study of Mus musculus with 27 samples.

Results

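The 6 genes described here are the early B-cell factor genes Ebf1, Ebf2, Ebf3 and Ebf4 and the zinc finger genes Zfp423 and Zfp521. They were taken by their symbols from the 24825 gene rows deposited for each of 27 RNA-seq samples. All groups are C2C12 cells, a line of mouse myoblasts able to fuse into myotubes. Control cells (ctrl), cells expressing full-length 3xFLAG-tagged NFIA from a pMXs retroviral vector, and cells expressing the Δpro#3 mutant, which lacks a C-terminal proline-rich stretch of NFIA, were each sampled in 3 settings. These were day 0, day 7 without forskolin and day 7 with 10 µM forskolin given for 4 h, which makes 9 groups of 3 replicates. The labels give the same protocol for every group, controls included, with an adipogenic cocktail from confluence on (isobutylmethylxanthine, indomethacin, dexamethasone, insulin, T3 and the PPARγ agonist rosiglitazone, then insulin, T3 and rosiglitazone), and the day 0 samples stand for cells before differentiation. Forskolin raises cyclic AMP. The labels do not say whether replicates were separate cultures, so p-values measure the spread between these samples, which may be technical.

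EBF proteins are helix-loop-helix DNA-binding factors first known from B cells. Ebf1 acts in adipocyte differentiation, Ebf2 marks brown and beige precursors and helps to recruit PPARγ to brown fat genes, and Ebf3 and Ebf4 are less studied in fat. Zfp423 is a zinc finger protein that binds EBF and SMAD proteins, promotes commitment of precursors to the adipocyte lineage and restrains thermogenic genes in white fat. The related Zfp521 binds EBF1, restrains adipocyte commitment and can recruit the NuRD corepressor complex.

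In GENCODE vM1 on mm9, the build to which the authors aligned the reads, Ebf1 lies at chr11:44430819-44821593, Ebf2 at chr14:67852129-68048604 and Ebf4 at chr2:130120905-130196217, all on the plus strand. Ebf3 lies at chr7:144385356-144506128 and Zfp423 at chr8:90185709-90483494, both on the minus strand.

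RefSeq upstream windows (GRCm38.p6) were used for 4 of the 6 genes, and the 250 bases before each start were located in the mm9 genome by exact match. The windows of Zfp423 and Ebf3 are shown because these genes moved in opposite directions with NFIA at day 0. They are written 5′ to 3′ on the minus strand with the NFI core motif TTGGC, or its reverse complement, in capitals. For Zfp423, the first window (chr8:90483495-90483744) ends at the annotated gene start, the second (chr8:90328339-90328588) lies 155156 bases inside the gene, and neither overlaps an annotated exon. The Ebf3 window is chr7:144506129-144506378.
Zfp423, outer start: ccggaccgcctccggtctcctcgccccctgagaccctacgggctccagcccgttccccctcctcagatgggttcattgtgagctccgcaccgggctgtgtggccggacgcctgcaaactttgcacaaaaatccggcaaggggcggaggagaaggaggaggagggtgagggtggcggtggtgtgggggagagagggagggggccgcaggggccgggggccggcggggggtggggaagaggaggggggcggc
Zfp423, inner start: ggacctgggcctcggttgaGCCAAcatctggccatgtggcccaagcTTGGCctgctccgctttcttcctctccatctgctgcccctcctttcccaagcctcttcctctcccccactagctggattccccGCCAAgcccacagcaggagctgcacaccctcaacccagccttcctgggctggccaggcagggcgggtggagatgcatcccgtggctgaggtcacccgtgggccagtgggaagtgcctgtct
Ebf3: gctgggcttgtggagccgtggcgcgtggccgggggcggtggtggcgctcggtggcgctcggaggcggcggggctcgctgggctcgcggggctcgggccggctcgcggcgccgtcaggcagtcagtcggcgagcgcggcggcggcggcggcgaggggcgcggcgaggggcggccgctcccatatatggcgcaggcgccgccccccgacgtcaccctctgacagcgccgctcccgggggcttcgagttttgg
The inner Zfp423 window held the core motif 3 times, and the outer Zfp423 window and the Ebf3 window did not hold it. Among the windows not shown, 1 of the 2 of Ebf1, which lies wholly in annotated exons, held it 1 time, and the other and that of Ebf4 did not. On either strand, TTGGC was found at least 1 time in 41.5% of the 32851 windows of the same length in the table. The share of windows that held it 3 times was not computed. The deposited values are per gene and do not tell the Zfp423 starts apart.

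The authors deposited FPKM, fragments relative to exon length and to all mapped fragments of the sample, which allows levels of different genes to be compared per length. The depth was 9567769 to 27230965 fragments per sample. Differences are log2 fold changes of FPKM + 1 with their standard errors (SE) from limma, over genes with a mean of 0.5 FPKM or more, and a gene is said to rise or fall at an adjusted p under 0.05. This scale understates changes of genes with low FPKM. Nfia was at 225 to 250 FPKM with full-length NFIA and at 397 to 423 FPKM with the Δpro#3 mutant at day 0. At day 7 it was at 457 to 528 FPKM and 374 to 480 FPKM, and after forskolin at 497 to 594 FPKM and 262 to 344 FPKM, so that the order of the constructs differed between times. In control cells at day 0 it was 0.879, 7.35 and 0.175 FPKM, so that replicate 2 stood apart. The day 0 calls of Ebf1, Ebf3, Zfp423 and Zfp521 against control cells below were also made without it. The day 0 counts and genes of the lists below were not computed again without it. At day 7, replicate 1 of the Δpro#3 mutant had the highest summed level of 6 adipocyte markers in its group (2018 FPKM, against a median of 727 FPKM). The muscle markers Myod1, Myf5 and Myog were detected in every group.

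Ebf1 ranged from 2.56 to 28.1 FPKM over the samples and had the highest group mean of the 6 genes in 8 of the 9 groups. Ebf3 ranged from 2.24 to 8.93 FPKM and was the higher of these in Δpro#3 cells after forskolin (3.08 against 2.71 FPKM), Zfp423 from 0.0754 to 3.72 FPKM, and Zfp521 from 0.256 to 1.40 FPKM. Ebf2 and Ebf4 were nearly absent, as detailed at the end. The filter on low values was passed by 4 of the 6 genes at day 0, at day 7 and in the fits of time and forskolin, and by 3 after forskolin treatment alone, where Zfp423 fell under it. Zfp423 passed at day 7 and in the fits of time and forskolin only through the NFIA cells, where it was high, so the counts of tested genes there include a gene admitted by its level in that group. After forskolin treatment alone, the same holds for Zfp521, which passed only through the control cells, where it was highest.

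**Figure D1:**
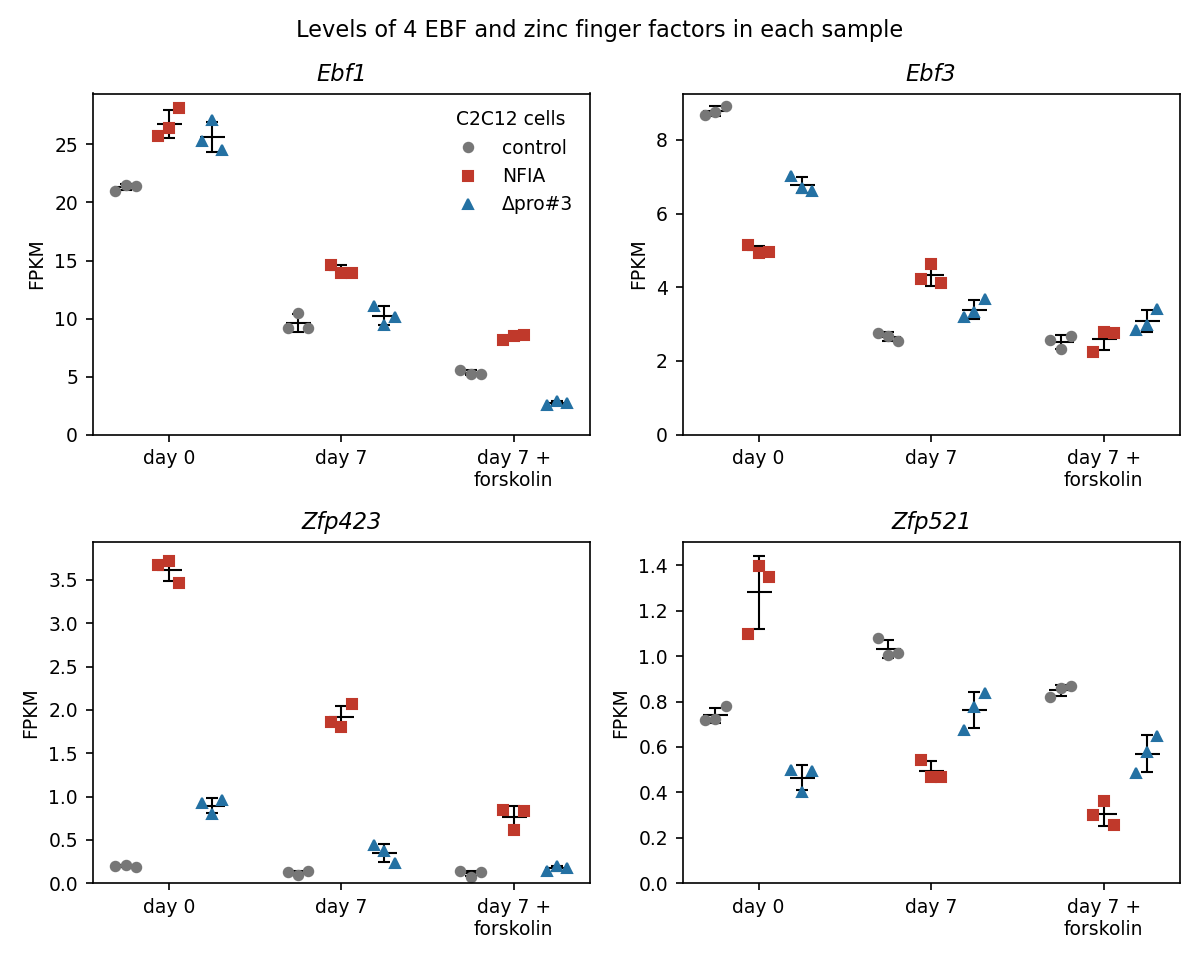
FPKM (linear axis from 0) of Ebf1, Ebf3, Zfp423 and Zfp521 in each of the 27 samples, by time and treatment; points are samples, and black bars the mean ± SD of 3. Zfp423 in NFIA cells lies above all control samples at each time, and Zfp521 in NFIA cells lies above the control samples at day 0 and below them at day 7.

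Markers of cell types moved with the groups. The summed level of 6 myoblast and muscle markers at day 0 was 938 to 958 FPKM in control, 134 to 142 in NFIA and a median of 390 FPKM in Δpro#3 cells, and at day 7 it was 4895 to 5667, 1079 to 1430 and 6702 to 6978 FPKM. Of these 6, 4 were higher and 2 lower in Δpro#3 than in control cells at day 7, where 21.3% and 27.5% of all genes were. Myog was among the lower (log2 fold change -1.41, adjusted p = 0.000259). The 6 adipocyte markers summed to 344 to 384 FPKM in control, 13363 to 14870 in NFIA and 613 to 2018 FPKM in Δpro#3 cells at day 7. Whether fewer cells of a type or less RNA per cell underlies a difference cannot be told apart in these bulk samples, and the part of these markers in the changes of the 6 genes was not tested. The 7 precursor or fibroblast markers summed to 393 to 414 FPKM in control, 681 to 723 in NFIA and 940 to 963 FPKM in Δpro#3 cells at day 0. The 4 blood markers found summed to at most 17.7 FPKM, and the 5 neuron markers to at most 111 FPKM. The 6 B lineage markers, where EBF1 is a defining factor, summed to at most 2.07 FPKM in every sample, and the precursor marker Dlk1 was at 0 in all groups but the mutant at day 0 (0.00267 FPKM).

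In the order of group means, Ebf1 was highest in NFIA and Δpro#3 cells at day 0, whose samples overlapped, and lowest in Δpro#3 cells after forskolin, and its only other overlapping neighbours were Δpro#3 and control cells at day 7. Ebf3 was highest in control cells at day 0, followed by Δpro#3 and NFIA cells at day 0 and NFIA cells at day 7, with no overlap down to there. Its 3 lowest groups, control cells at day 7, NFIA cells after forskolin and control cells after forskolin, overlapped. Zfp423 was highest in NFIA cells at day 0 and then at day 7, each apart from the next group, and its 4 lowest groups, the control groups and Δpro#3 cells after forskolin, overlapped with their neighbours. Zfp521 was highest in NFIA cells at day 0 and lowest in NFIA cells after forskolin, both apart from their neighbours.

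The first comparison asks how the introduced constructs changed these genes before differentiation. Zfp423 rose most. It was at 0.194, 0.213 and 0.192 FPKM in control cells (77 fragments in all), at 3.67, 3.72 and 3.47 FPKM in NFIA cells and at 0.923, 0.798 and 0.965 FPKM in Δpro#3 cells. No sample of a group overlapped with another group. Mean FPKM was 18.1 times that of control cells in NFIA cells and 4.48 times in Δpro#3 cells, and the log2 fold change of FPKM + 1 was 1.94 (SE 0.0569, adjusted p = 1.84e-10) and 0.66 (SE 0.0569, adjusted p = 2.46e-06). The Δpro#3 mutant gave a lower level than full-length NFIA (log2 fold change -1.29, adjusted p = 1.10e-08).

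Zfp521, the relative of Zfp423 with the opposite role in adipocyte commitment, lies at chr18:13845522-14131242 on the minus strand. It was at 0.720, 0.722 and 0.779 FPKM in control cells, at 1.10, 1.40 and 1.35 FPKM in NFIA cells and at 0.497, 0.403 and 0.495 FPKM in Δpro#3 cells. Full-length NFIA and the mutant therefore moved it in opposite directions, with no overlap between groups. It rose by 0.39 (SE 0.0680, adjusted p = 0.000380) with full-length NFIA and fell with the mutant (log2 fold change -0.25, SE 0.0680, adjusted p = 0.00878). The difference between the constructs was -0.64 (SE 0.0680, adjusted p = 1.16e-05).

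Among the EBF genes, Ebf1 rose with both constructs, from 21.3 ± 0.254 FPKM (SD, n = 3) in control cells to 26.8 ± 1.21 with full-length NFIA (log2 fold change 0.31, SE 0.0423, adjusted p = 5.08e-05) and 25.7 ± 1.31 with the mutant (0.26, SE 0.0423, adjusted p = 0.000372). The constructs overlapped for Ebf1, and their difference did not pass the test (-0.06, SE 0.0423, adjusted p = 0.242). Ebf3 fell with both. It was at 8.68, 8.76 and 8.93 FPKM in control cells, 5.13, 4.94 and 4.96 FPKM in NFIA cells and 7.01, 6.70 and 6.60 FPKM in Δpro#3 cells. The log2 fold change was -0.70 (SE 0.0373, adjusted p = 2.24e-08) with full-length NFIA and -0.33 (SE 0.0373, adjusted p = 1.99e-05) with the mutant, with the mutant higher than full-length NFIA by 0.37 (SE 0.0373, adjusted p = 7.31e-06).

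At day 0, 3 of the 4 tested genes thus rose and 1 fell with full-length NFIA, where 37.7% of all 12105 genes tested rose and 35.6% fell. Zfp423 alone also exceeded 3-fold, as did 2.46% of all genes upward. With the mutant, 2 rose and 2 fell (32.5% and 29.7% of all genes). Against full-length NFIA, 1 was higher and 2 were lower in the mutant cells (33.4% and 31.9% of all genes). Most genes responded to the constructs at this threshold, so the number of these genes that passed says little of itself.

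**Figure D2:**
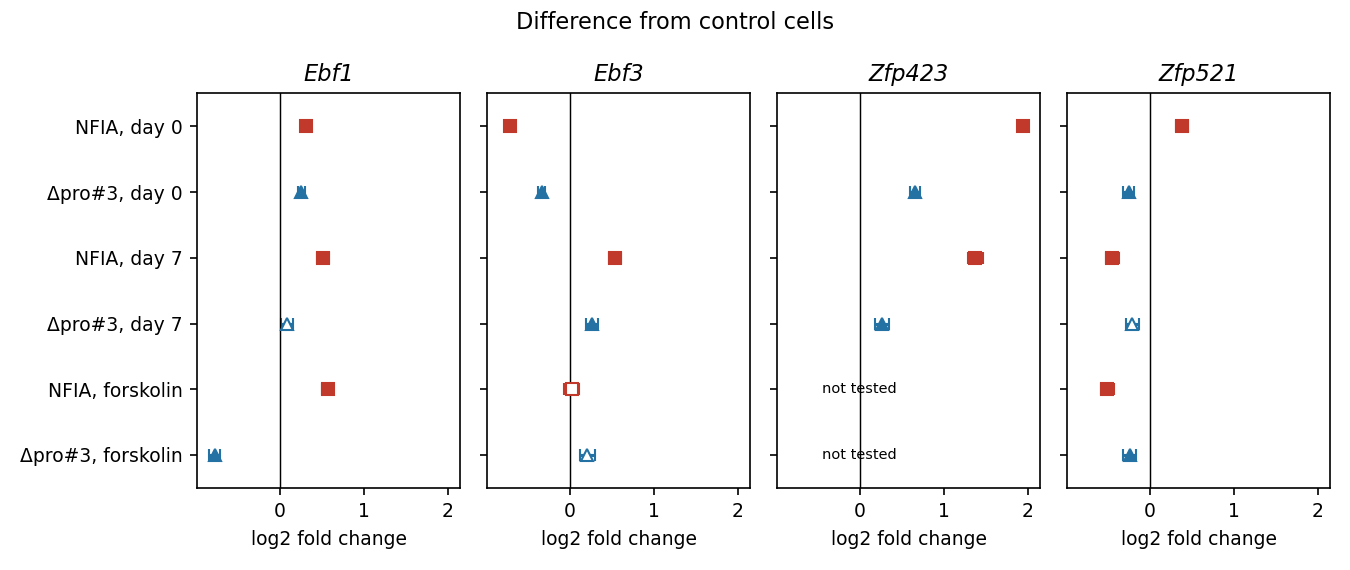
Log2 fold change of FPKM + 1 (points, with SE) of each construct against control cells at day 0, at day 7 and after forskolin; filled symbols passed an adjusted p under 0.05. Ebf3 and Zfp521 in NFIA cells lie on opposite sides of 0 at day 0 and day 7, and Zfp423 was not tested after forskolin.

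At day 7, the question was whether the differences lasted through differentiation. Zfp423 was still higher with full-length NFIA, at 1.86, 1.81 and 2.07 FPKM against 0.131, 0.0952 and 0.137 FPKM in control cells, which held 26 fragments in all. The ratio of means was 15.8 and the log2 fold change 1.38 (SE 0.0878, adjusted p = 2.47e-07). In Δpro#3 cells it was at 0.443, 0.374 and 0.237 FPKM, above every control sample (0.27, SE 0.0878, adjusted p = 0.0292). This call was lost without replicate 1 or 2 of the mutant (adjusted p = 0.0876 and 0.0796), without any replicate of the control cells (0.0545 to 0.0807), and with the replicate number as a block (0.0544).

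With full-length NFIA, Ebf3 and Zfp521 had changed sides against control cells. Ebf3 was at 2.77, 2.67 and 2.53 FPKM in control cells and at 4.22, 4.64 and 4.11 FPKM in NFIA cells, without overlap, and had risen by 0.54 (SE 0.0728, adjusted p = 6.90e-05) with full-length NFIA. It rose by 0.26 with the mutant (SE 0.0728, adjusted p = 0.0133), where it was at 3.19, 3.32 and 3.68 FPKM. Zfp521 was at 1.08, 1.00 and 1.01 FPKM in control cells and 0.544, 0.466 and 0.470 FPKM in NFIA cells, a fall (-0.44, SE 0.0778, adjusted p = 0.000454). In Δpro#3 cells it was at 0.676, 0.778 and 0.835 FPKM, below every control sample, but the difference missed the threshold (-0.21, SE 0.0778, adjusted p = 0.0507). The mutant was higher than full-length NFIA by 0.24 (SE 0.0778, adjusted p = 0.0207), a call lost without replicate 2 or 3 of either group (adjusted p between 0.0521 and 0.0765).

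Ebf1 was at 14.2 ± 0.403 FPKM (SD, n = 3) in NFIA cells, 9.61 ± 0.758 in control cells and 10.3 ± 0.837 in Δpro#3 cells. It was higher with full-length NFIA than in control cells (0.52, SE 0.0726, adjusted p = 9.36e-05), and the mutant overlapped with the control samples and did not pass the test (0.08, SE 0.0726, adjusted p = 0.366). With full-length NFIA, 3 of the 4 tested genes rose and 1 fell, where 31.3% of all 12324 genes rose and 41.1% fell. With the mutant, 2 rose and none fell (21.3% and 27.5%). Against full-length NFIA, 1 was higher and 3 were lower in the mutant (34.3% and 29.4%).

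After forskolin, Ebf1 separated all groups. It was at 5.58, 5.23 and 5.21 FPKM in control cells, at 8.18, 8.46 and 8.59 FPKM in NFIA cells and at 2.56, 2.89 and 2.69 FPKM in Δpro#3 cells. The NFIA cells were highest and the mutant cells lowest, without overlap. Ebf1 was higher with full-length NFIA (0.57, SE 0.0640, adjusted p = 1.26e-05) and lower with the mutant than in control cells (-0.77, SE 0.0640, adjusted p = 5.26e-06), with a difference of -1.34 between the constructs (SE 0.0640, adjusted p = 1.65e-08). At least as large a fall against control cells was found for 3.85% of all 12121 genes. Nfia itself was lower in Δpro#3 cells than in NFIA cells here (-0.88, SE 0.0998, adjusted p = 1.85e-05), and its part in the Ebf1 difference was not tested.

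Zfp521 was at 0.849 ± 0.0250 FPKM (SD, n = 3) in control cells and fell with full-length NFIA to 0.306 ± 0.0533 (-0.50, SE 0.0791, adjusted p = 0.000168). In Δpro#3 cells it was at 0.570 ± 0.0819 (-0.24, SE 0.0791, adjusted p = 0.0297). Zfp521 passed the filter here only through the control cells, from which it fell, and both calls were also made with no filter. The call with the mutant was lost in 8 of 16 alternatives, among them a block on the replicate number (adjusted p = 0.0504) and leaving out any replicate of the control cells (0.0647 to 0.0755) or replicate 1 or 2 of the mutant (0.0875 and 0.0600). The mutant was higher than full-length NFIA by 0.26 (SE 0.0791, adjusted p = 0.0123), a difference not tested in the fit of only these groups, where Zfp521 fell under the filter. Ebf3 passed the test with neither construct, at 2.52 ± 0.186, 2.59 ± 0.306 and 3.08 ± 0.298 FPKM in control, NFIA and Δpro#3 cells (0.03, SE 0.0892, adjusted p = 0.797, and 0.21, SE 0.0892, adjusted p = 0.0739). Its Δpro#3 samples lay above every control sample, and that difference passed under median-ratio scaling (adjusted p = 0.0398), on fragments with limma-voom (0.0290) and without replicate 1 of NFIA cells (0.0405).

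Zfp423, under the filter here, was at 0.137, 0.0754 and 0.126 FPKM in control cells, 0.846, 0.618 and 0.829 FPKM in NFIA cells and 0.135, 0.202 and 0.173 FPKM in Δpro#3 cells. The NFIA cells lay above all others, and the mutant overlapped with the control cells. The exact permutation test, 2-sided, gave p = 0.1 for NFIA cells, the smallest that 3 against 3 samples allow, and p = 0.2 for the mutant. Of the 3 tested genes, 1 rose and 1 fell with full-length NFIA (25.5% and 47% of all genes), none rose and 2 fell with the mutant (19.5% and 27.1%), and 1 was higher and 1 lower in the mutant than with full-length NFIA (42% and 24.2%). The median log2 fold change of all genes with full-length NFIA was -0.17 here, and scaling samples by median ratios moved it by 0.14. No call of these 3 genes with full-length NFIA changed under that scaling.

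The change from day 0 to day 7 was then compared within each cell type. Ebf1 fell everywhere, with log2 fold changes of -1.07 in control, -0.87 in NFIA and -1.25 in Δpro#3 cells (SE 0.0593 in each, adjusted p = 4.01e-11, 5.05e-10 and 6.32e-12). The fall in NFIA cells was smaller than in control cells by 0.20 (SE 0.0838, adjusted p = 0.0393), which was lost in 9 of 26 alternatives. These were a replicate block (adjusted p = 0.0532) and leaving out any control replicate at day 0, control replicate 1 or 3 at day 7, NFIA replicate 1 or 2 at day 0, or NFIA replicate 1 at day 7 (0.0508 to 0.0941). Ebf3 fell by 1.42 in control cells (SE 0.0528, adjusted p = 2.89e-13), to 0.303 of its day 0 level, and by 0.82 in Δpro#3 cells (adjusted p = 2.89e-10). In NFIA cells it changed by -0.18 (adjusted p = 0.00603), a call lost under median-ratio scaling (-0.06, adjusted p = 0.321). The loss of Ebf3 was thus smaller with the constructs, by 1.24 with full-length NFIA (SE 0.0746, adjusted p = 2.61e-10) and by 0.60 with the mutant (SE 0.0746, adjusted p = 7.14e-06).

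Zfp521 rose in control cells (0.22, SE 0.0637, adjusted p = 0.00423) and Δpro#3 cells (0.27, SE 0.0637, adjusted p = 0.00109) and fell in NFIA cells (-0.61, SE 0.0637, adjusted p = 1.42e-07). The difference from control cells was -0.83 with full-length NFIA (SE 0.0901, adjusted p = 3.82e-07), and that with the mutant was 0.04 (SE 0.0901, adjusted p = 0.727). Zfp423 fell in NFIA cells (-0.67, SE 0.0653, adjusted p = 6.26e-08) and Δpro#3 cells (-0.49, SE 0.0653, adjusted p = 2.90e-06), and in control cells, at a low level throughout, it changed by -0.10 (SE 0.0653, adjusted p = 0.179). As ratios of mean FPKM, day 7 over day 0, these are 0.529, 0.392 and 0.606. The difference between NFIA and control cells (-0.57, adjusted p = 3.69e-05) was lost with a pseudocount of 0.1 (-0.44, adjusted p = 0.0938) and on fragments with limma-voom (-0.24, adjusted p = 0.516). That between Δpro#3 and control cells (-0.39, adjusted p = 0.00249) was lost on fragments (-0.70, adjusted p = 0.116).

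In control cells, 1 of the 4 tested genes rose and 2 fell (36% and 42.7% of all 12408 genes). In NFIA cells none rose and 4 fell (33.2% and 46.5%), and in Δpro#3 cells 1 rose and 3 fell (32.8% and 46.7%). The change differed from control cells for 4 of 4 genes with full-length NFIA (71.2% of all genes) and for 2 of 4 with the mutant (44.7%).

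**Figure D3:**
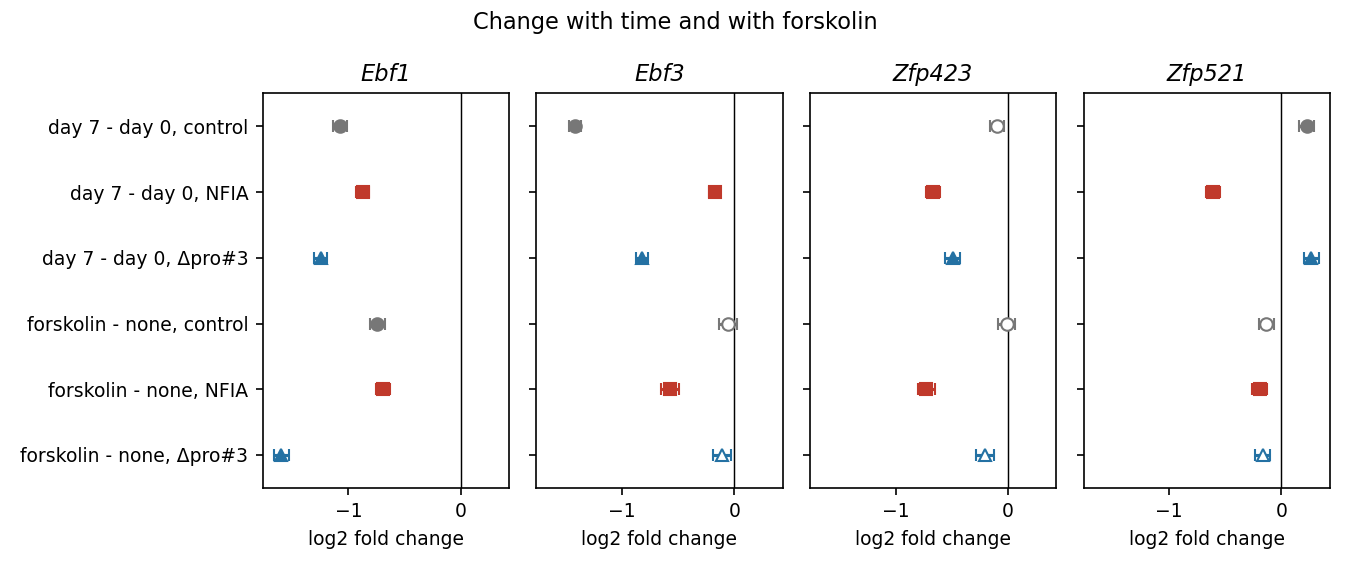
Log2 fold change of FPKM + 1 (points, with SE) from day 0 to day 7 and with forskolin at day 7, within control, NFIA and Δpro#3 cells; filled symbols passed an adjusted p under 0.05. Zfp521 in NFIA cells falls from day 0 to day 7 where the other cells rise, and Ebf1 in Δpro#3 cells has the largest fall with forskolin.

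Of these genes, Ebf1 was the one that fell with 4 h of forskolin at day 7 in every cell type. It fell in control cells from 9.61 to 5.34 FPKM (-0.74, SE 0.0645, adjusted p = 4.27e-07), in NFIA cells from 14.2 to 8.41 FPKM (-0.69, SE 0.0645, adjusted p = 2.15e-07) and in Δpro#3 cells from 10.3 to 2.71 FPKM (-1.60, SE 0.0645, adjusted p = 1.93e-11). The Δpro#3 samples went from 11.1, 9.46 and 10.2 to 2.56, 2.89 and 2.69 FPKM. The fall in the mutant exceeded that in control cells by 0.86 (log2 difference -0.86, SE 0.0913, adjusted p = 3.48e-05), and the responses of NFIA and control cells did not differ detectably (0.05, SE 0.0913, adjusted p = 0.711). Nfia fell with forskolin in Δpro#3 cells too, from 413 to 294 FPKM (-0.49, SE 0.109, adjusted p = 0.00236), and its part in the fall of Ebf1 was not tested. The Δpro#3 response ranked 16 of 12245 genes by size of fall. On the FPKM + 1 scale it lay close to the 3-fold threshold, which it missed under median-ratio scaling and without replicate 1 of the mutant with or without forskolin.

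Ebf3 fell in NFIA cells (-0.57, SE 0.0785, adjusted p = 1.43e-05), while the change in control cells was -0.06 (SE 0.0785, adjusted p = 0.680) and the difference between them was -0.51 (SE 0.111, adjusted p = 0.00238). Zfp423 fell in NFIA cells (-0.72, SE 0.0784, adjusted p = 1.10e-06), and the difference from the change in control cells was -0.71 (SE 0.111, adjusted p = 0.000154). It passed the filter in this fit only through the NFIA cells, the group in which it fell, and both calls were also made with no filter. Its change in Δpro#3 cells missed the threshold (-0.20, SE 0.0784, adjusted p = 0.0515) and passed it in 7 of 21 alternatives, among them without replicate 3 of the mutant at day 7 (adjusted p = 0.0232), without replicate 1 or 2 of NFIA cells after forskolin (0.0499 and 0.0437) and limma-voom on fragments (0.0129). Zfp521 fell in NFIA cells (-0.19, SE 0.0681, adjusted p = 0.0237), a call lost under median-ratio scaling (adjusted p = 0.0542), without replicate 1 of NFIA cells at day 7 (0.0791) and without replicate 3 of NFIA cells after forskolin (0.0858). Its change was -0.14 in control cells (adjusted p = 0.186) and -0.17 in Δpro#3 cells (adjusted p = 0.0655), and the difference between NFIA and control cells did not pass the test (-0.06, SE 0.0964, adjusted p = 0.692). The change of Zfp521 in Δpro#3 cells passed with no filter (adjusted p = 0.0167), with no trend (0.0222) and with limma-voom on fragments (0.0245).

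None of the 4 tested genes rose with forskolin in any cell type. In control cells 1 fell (7.05% of all genes rose and 13.5% fell), in NFIA cells 4 fell (13.9% and 41.5%) and in Δpro#3 cells 1 fell (11.9% and 23.9%), Ebf1 with over 3-fold, as in 0.131% of all genes. The response differed from control cells for 2 of 4 genes with full-length NFIA (30.6% of all genes) and for 1 of 4, Ebf1, with the mutant (4.97%).

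The balance of Zfp423 and Zfp521 was summarised as the log2 ratio of FPKM + 1. At day 0 it was -0.54 ± 0.0371 (SD, n = 3) in control cells, 1.02 ± 0.120 in NFIA cells and 0.37 ± 0.0203 in Δpro#3 cells. At day 7 it was -0.86 ± 0.0292, 0.96 ± 0.0884 and -0.39 ± 0.177. After forskolin it was -0.73 ± 0.0542, 0.43 ± 0.161 and -0.42 ± 0.0572. Both genes are near or under 1 FPKM, so the size depends on the added constant. With 0.1 in place of 1, the ratio went from -1.49 at day 0 to -2.36 at day 7 in control cells and from 1.43 to 1.76 in NFIA cells, where it was slightly lower at day 7 with 1, so no change in time is read for NFIA cells. In Δpro#3 cells it went from above 0 at day 0 to below 0 at day 7 with either constant (0.82 and -0.96 with 0.1). No group mean had another sign with 0.1 than with 1. Zfp423 thus exceeded Zfp521 in every NFIA sample and in the mutant at day 0 only, and in control cells Zfp521 was the higher. Each difference of a construct from control cells gave p = 0.1 in the 2-sided exact permutation test, the smallest that this design allows, with no overlap of samples.

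**Figure D4:**
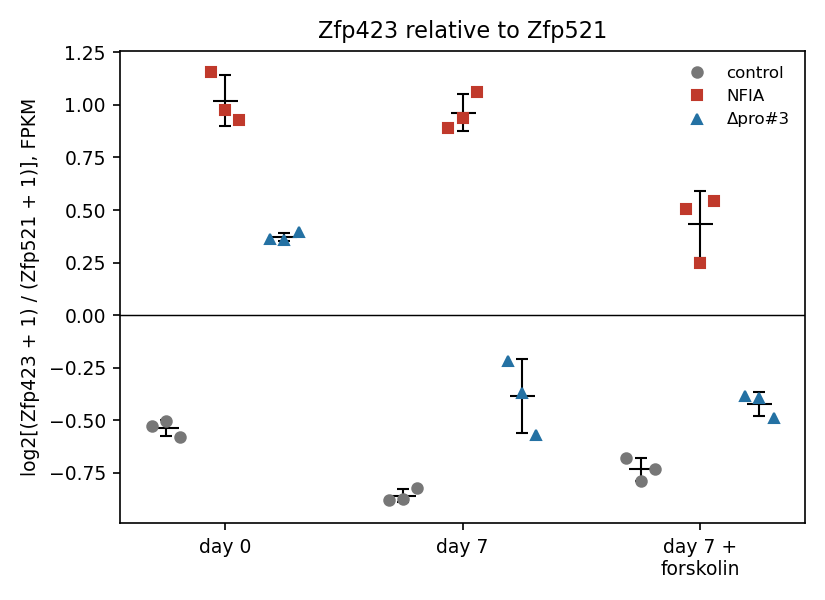
Log2 ratio of Zfp423 + 1 to Zfp521 + 1 (FPKM) in each sample, by time and treatment; points are samples, black bars the mean ± SD of 3. NFIA samples lie above 0 at each time, control samples below 0, and the Δpro#3 samples cross from above 0 at day 0 to below 0 at day 7.

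As a share of the summed FPKM of the 4 Ebf genes, Ebf1 was 70.6% ± 0.246 (SD, n = 3) in control cells, 84.2% ± 0.790 in NFIA cells and 79.1% ± 1.02 in Δpro#3 cells at day 0. At day 7 the shares were 77.8% ± 1.91, 76.6% ± 1.42 and 74.9% ± 2.48, which overlapped. After forskolin Ebf1 was 46.6% ± 2.46 of the sum in Δpro#3 cells, where Ebf3 made up 52.8% ± 2.88, while Ebf1 remained the larger in control (67.4% ± 2.09) and NFIA cells (76.4% ± 1.65).

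The genes around them in the pathway were taken from lists of known factors. Of 30 regulators of adipocyte commitment, 24 were tested at day 0, where 13 rose and 10 fell with full-length NFIA (median 0.31, against 0.01 over all genes) and 11 rose and 9 fell with the mutant. Over all genes, 37.7% rose and 35.6% fell with full-length NFIA, and 32.5% and 29.7% with the mutant. Zfp467 would be under the filter without the NFIA cells. With this gene left out, the counts with full-length NFIA were the same, and the median was 0.53. In Δpro#3 cells the median was then 0.28 in place of 0.16, where 11 rose and 8 fell. The matricellular gene Wisp2 rose by 2.95 with full-length NFIA and was at 0.04 (adjusted p = 0.678) with the mutant. The master regulators Pparg and Cebpa rose by 2.22 and 2.37 with full-length NFIA and by 1.60 and 1.14 with the mutant, and Klf5 fell by 2.47 and 1.70. At day 7, Pparg was higher by 2.55 and Cebpa by 3.23 with full-length NFIA, and by 0.39 (adjusted p = 0.00182) and 0.26 (adjusted p = 0.201) with the mutant. Srebf1, a regulator of lipid synthesis, was higher by 3.44 with full-length NFIA at day 7 and by 0.28 with the mutant.

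BMP signalling acts with Zfp423 through SMAD proteins. Of 25 BMP pathway genes, 17 were tested at day 0, where 8 rose and 7 fell with full-length NFIA (median 0.04), beside 37.7% and 35.6% of all genes. With the mutant 7 rose and 5 fell (32.5% and 29.7%). The ligand Bmp4 rose by 2.27 with full-length NFIA and by 1.34 with the mutant, and the SMADs Smad6, an inhibitor, and Smad9 rose by 2.70 and 2.25 with full-length NFIA and by 1.54 and 1.25 with the mutant. The BMP antagonist Grem1 fell by 1.92 with full-length NFIA and was at -0.01 (adjusted p = 0.820) with the mutant. At day 7, 2 rose and 11 fell with full-length NFIA (median -0.43, against -0.08 over all genes), and 1 rose and 7 fell with the mutant, where 31.3% and 41.1% of all genes rose and fell with full-length NFIA and 21.3% and 27.5% with the mutant. Smad9 passed the filter there only through the NFIA cells, and the median with full-length NFIA was -0.48 without it. Grem1 fell by 4.01, the BMP antagonist Chrd by 0.97 and the BMP target Id3 by 1.15 with full-length NFIA at day 7, and Smad6 rose by 0.82. With the mutant, Chrd rose by 0.40 (adjusted p = 0.00217) and Id3 fell by 0.57 (adjusted p = 0.00304). Grem1 (-0.33, adjusted p = 0.271) and Smad6 (0.06, adjusted p = 0.699) did not pass the test there. At day 0, Id3 was at 301 FPKM in NFIA cells against 134 FPKM in control cells, and the related Id1 and Id2, named after their values were seen, were at 84.1 against 27.5 FPKM and 72.6 against 21.0 FPKM. Of the 13 NuRD subunits, 3 rose and 7 fell with full-length NFIA at day 0 (median -0.20), with Chd3 lower by 1.63, where 37.7% of all genes rose and 35.6% fell. With the mutant, 4 rose and 5 fell (32.5% and 29.7%). At day 7, 4 rose and 4 fell with full-length NFIA (31.3% and 41.1% of all genes), and 1 rose and 3 fell with the mutant (21.3% and 27.5%).

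Of 16 adipocyte genes known to respond to EBF proteins, 7 were tested at day 0 and 13 at day 7. At day 0, 4 rose and 2 fell with full-length NFIA (median 0.30, with 37.7% and 35.6% of all genes), and 5 rose and 1 fell with the mutant (median 0.57, with 32.5% and 29.7%). Cox8b, a muscle and brown fat subunit of cytochrome c oxidase, fell by 2.33 and 0.71 there. At day 7, 11 rose and 2 fell with full-length NFIA (median 4.04), and 9 rose and 1 fell with the mutant (median 1.02). Over all genes, 31.3% rose and 41.1% fell with full-length NFIA, and 21.3% and 27.5% with the mutant. Cidea passed the filter only through the NFIA cells, and without it 10 rose and 2 fell with full-length NFIA (median 3.63) and 9 rose and 1 fell with the mutant (median 1.10). The lipid droplet genes Plin1 and Cidec, the fatty acid binding protein Fabp4 and the adipokine Adipoq rose by 6.50, 5.95, 6.23 and 5.91 with full-length NFIA, and by 2.08, 1.58, 1.80 and 1.75 with the mutant. Without replicate 1 of the mutant, which stood apart in adipocyte markers, they rose by 1.64, 0.82, 1.09 and 1.04, and of the list 9 rose and 1 fell with a median of 0.67 (18.8% and 25.03% of all genes). With forskolin in Δpro#3 cells, 1 of the 13 rose and 8 fell (median -0.48, against -0.06 over all genes), where 11.9% of all genes rose and 23.9% fell. The adipocyte markers, 4 of which are also among the 16 genes, moved with them, with 1 of 6 higher and 5 lower (median -1.60). Their summed level went from 613 to 2018 FPKM without forskolin, where replicate 1 of the mutant stood apart, to 539.9 to 900.3 FPKM with it. Without that sample, 1 of the 13 genes rose and 5 fell (median -0.38, with 9.59% and 18.4% of all genes), and 1 of the 6 markers rose and 2 fell (median -0.87). In control cells 2 of the 13 rose and 1 fell (7.05% and 13.5% of all genes), and in NFIA cells 2 rose and 4 fell (13.9% and 41.5%). Cidea passed the filter of the forskolin fit only through the NFIA cells too. In the main fit without it, the counts were the same in each cell type, and the median in Δpro#3 cells was -0.56.

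By Pearson correlation of log2(FPKM + 1) over the 27 samples, among 11582 genes with a mean of 1 FPKM or more, Setbp1 (r = 0.978), Ephb6 (0.967) and a gene listed as 6-Sep (0.967) were most like Ebf1. Cpne1 (0.980), Mkl2 (0.976) and the BMP effector Smad5 (0.966) were most like Ebf3. Trabd2b (0.982), Fam43a (0.972) and Orc6 (0.972) were most like Zfp423, and Nuak1 (0.904), Pms1 (0.901) and Gata4 (0.888) most like Zfp521. These samples share groups of construct and time, and the values describe those libraries. Fam43a followed Zfp423 with 1.11 FPKM in control, 26.5 in NFIA and 4.40 in Δpro#3 cells at day 0.

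Ebf2 had 2 fragments in all 27 samples, 1 in Δpro#3 cells at day 0 (replicate 1) and 1 in NFIA cells at day 7 (replicate 2). For a sample with no fragment, the limit that a count of 0 allows (3 fragments) was 0.0193 to 0.0549 FPKM, which covers counting error only, and a level of Ebf2 below it could be missed at this depth. Ebf4 had 51 fragments in all samples, at most 8 in one of them, with a highest mean of 0.0829 FPKM in control cells at day 7, while no fragment was found in NFIA cells at day 7. At day 0, Ebf4 had 16 fragments in the control samples (mean 0.0794 FPKM), 4 in NFIA cells (0.0258) and 3 in Δpro#3 cells (0.0162). At day 7, the control samples held 7, 2 and 1 fragments. The limit for single NFIA samples was 0.0546 to 0.117 FPKM, above the lower 2 control values of 0.0445 and 0.0319 FPKM. Pooled over the samples of a group, the 95% Poisson interval was 0.0410 to 0.157 FPKM in control and 0 to 0.0332 FPKM in NFIA cells, without overlap. These intervals cover counting error only, and most of the control fragments came from replicate 1. For NFIA cells at both times and Δpro#3 cells at day 0, the 2-sided exact permutation test gave p = 0.1, the smallest that 3 against 3 samples allow, so no difference could pass at 0.05. The other 3 comparisons with control cells gave exact p = 0.2 to 0.5.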

How the data were processed

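Polyadenylated RNA of C2C12 cells was sequenced (stranded libraries). The authors aligned the reads to mm9 with STAR 2.5.3a, kept uniquely mapped reads, counted matched-strand fragments per gene and deposited FPKM per sample. Their annotation is not given in the sources used here. FPKM times gene length gave whole fragments (within 0.05) for 100% of values up to 2000 fragments, which were used for depth and 1 alternative.

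Groups were taken from the labels. limma 3.58.1 (R 4.3.3) was fitted with a mean-variance trend to log2(FPKM + 1), over genes averaging at least 0.5 FPKM, in 9 samples per time point and in 18 for time and for forskolin, with Benjamini-Hochberg adjustment over all genes. Python 3.11.15 and matplotlib 3.10.9 were used for the rest. Named genes were the 6 genes, for each with a mean of 0.5 FPKM or more the 3 genes most correlated with it, and from each list up to 4 genes changed most by NFIA at day 0 and at day 7. The genes and lists were chosen with earlier results of these data known. Alternatives were a pseudocount of 0.1, median-ratio scaling, no filter, a minimum of 1 FPKM, only the groups compared, no trend, limma-voom, a replicate block and leaving out each sample. Replicate numbers did not pair the samples.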

Additional observations from a re-analysis of the deposited data

Results flagged for a closer look

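The change from day 0 to day 7 differed between NFIA and control cells by a test of the difference itself for Ebf1 (0.203 on the log2 scale), Ebf3 (1.24), Zfp423 (-0.568) and Zfp521 (-0.833). The Ebf1 value was lost (adjusted p between 0.0508 and 0.0941) in 8 of the fits that leave out 1 sample, the Zfp423 value with a pseudocount of 0.1 and on fragments, and those of Ebf3 and Zfp521 in no alternative run. Between the Δpro#3 mutant and control cells the same change differed for Ebf3 (0.596) and Zfp423 (-0.392), the latter lost on fragments (adjusted p = 0.116).

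The response to forskolin differed between NFIA and control cells for Ebf3 (-0.514) and Zfp423 (-0.714), and between the Δpro#3 mutant and control cells for Ebf1 (-0.855). The forskolin responses of mutant and NFIA cells were not tested against each other.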

How the results depend on the processing

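Counts of tested genes that passed the test are given with their main value first. Raising the minimum to 1 FPKM, which leaves 2 of these genes tested, gave 2 instead of 4 with NFIA against control cells and with the mutant against NFIA cells at day 7, and 1 instead of 2 with the mutant against control cells at day 7. It gave 1 instead of 2 in each of the 3 comparisons after forskolin, 2 instead of 4 for forskolin in NFIA cells and 1 instead of 2 for the difference of that response from control cells. Fits of only the groups compared gave 1 instead of 2 for the mutant against control cells at day 7 and after forskolin, for the mutant against NFIA cells after forskolin and for the difference in time between mutant and control cells, where limma-voom also gave 1. In these fits Zfp423 (day 7 and time) or Zfp521 (mutant against NFIA cells) fell under the filter, while the call of Zfp521 against control cells after forskolin missed the threshold (adjusted p = 0.0507). A pseudocount of 0.1 gave 1 instead of 2 for the mutant against control cells after forskolin. For forskolin in mutant cells, 1 gene passed, against 2 with a pseudocount of 0.1 and 3 with no filter, no trend or limma-voom. The single gene over 3-fold there became 0 with median-ratio scaling.

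Leaving out 1 sample gave 1 to 2 for the mutant against control cells at day 7, 1 to 3 after forskolin, 2 to 4 for forskolin in NFIA cells, 1 to 2 for forskolin in mutant cells, 0 to 1 over 3-fold there, and 1 to 2 for the difference of the forskolin response between NFIA and control cells, where Zfp423 falls under the filter. Signs reversed when 1 sample was left out in values that had not passed the test. These were Ebf3 with NFIA after forskolin (-0.015 to 0.10), Zfp423 with forskolin in control cells (-0.028 to 0.013), the difference in the forskolin response of Ebf1 between NFIA and control cells (-0.0065 to 0.082), and that of Zfp521 between mutant and control cells (-0.069 to 0.0078).

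With the replicate number as a block, which does not pair samples here (mean correlation of same-numbered samples 0.0168, -0.0371 and -0.00377 at the 3 time points), 1 gene instead of 2 passed with the mutant against control cells at day 7 and after forskolin, and 3 instead of 4 for the change in time between NFIA and control cells. The cause of these changes was not tested. Depth limits Ebf2, Ebf4 and the low groups of Zfp423.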
